A study of Mus musculus with 11 samples.

Results

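MicroRNA genes were examined for trimethylation of histone H3 at lysine 4 (H3K4me3) in mouse granulosa cells, the follicle cells that surround the oocyte. The members were all rows of the deposited H3K4me3 gene table whose Entrez ID carries a symbol that begins with Mir and a number, or with Mirlet7. There were 1182 of them among 24541 gene IDs, of which 1173 were annotated as microRNA genes and 9 as long noncoding transcripts such as Mir22hg and Mir17hg. The cells came from ovaries of C57BL/6 mice given equine chorionic gonadotropin (eCG), a hormone with follicle-stimulating activity, for 48 h, or from untreated mice (0 h). H3K4me3 was profiled in 2 libraries at 48 h and 2 at 0 h, and RNA in 3 libraries at 48 h and 3 at 0 h. The labels give postnatal day 21 for the mice of the RNA libraries, isolation of those cells by follicular puncture, and biological replicates for both assays. An input DNA library belongs to the series and was not analysed here. Total counts were 11989769 to 17968033 per H3K4me3 library and 12013849 to 26343971 per RNA library.

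H3K4me3 marks nucleosomes around active or poised gene starts. A microRNA is cut from a longer primary transcript by Drosha and Dgcr8, exported by Xpo5, cut again by Dicer1 and loaded onto an Argonaute protein, so the start of its primary transcript may lie far from the microRNA itself. Many microRNAs lie inside another gene, the host, and share its transcript, while others have a start of their own. Bases 2 to 8 of the mature microRNA, the seed, pair with target messages. In granulosa cells, microRNAs act on survival, proliferation and steroid production, and Dicer1 is needed for normal female fertility.

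The mature sequences of the microRNAs on which the results turn are printed 5′ to 3′ from RefSeq (build GRCm38.p6), with the seed in capitals. The first 7 belong to 3 clusters that each pair a member of the miR-99/100 family with a let-7 and a miR-125, and whose windows were called higher in one cluster and lower in others.
miR-99b-5p: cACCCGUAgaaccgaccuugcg
miR-99a-5p: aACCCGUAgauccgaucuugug
miR-100-5p: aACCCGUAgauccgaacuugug
let-7e-5p: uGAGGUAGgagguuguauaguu
let-7c-5p: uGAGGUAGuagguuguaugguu
miR-125a-5p: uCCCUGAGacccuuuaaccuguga
miR-125b-5p: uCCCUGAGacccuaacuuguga

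The next 4 share the miR-15/16 seed and come from a called pair of neighbours, Mir15b and Mir16-2, and an uncalled pair, Mir195a and Mir497.
miR-15b-5p: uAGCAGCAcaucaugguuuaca
miR-16-5p: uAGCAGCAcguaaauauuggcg
miR-195a-5p: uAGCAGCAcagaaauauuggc
miR-497a-5p: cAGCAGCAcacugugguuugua

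The last 6 belong to windows called higher or lower, and no seed recurs among them.
miR-210-3p: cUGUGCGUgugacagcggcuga
miR-190b-5p: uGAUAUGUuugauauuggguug
miR-22-3p: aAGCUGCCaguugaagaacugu
miR-1904: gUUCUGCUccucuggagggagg
miR-7059-5p: aCCGGGGAcugcggcuuucagu
miR-5123: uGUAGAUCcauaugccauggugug

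Most microRNA genes carried little H3K4me3. Their median level was 1.60 CPM (counts scaled to each library's total and composition, averaged over the 4 libraries), against 18.9 CPM over all genes. A mean of 5 CPM or more was reached by 269 members (22.8%), against 59.9% of all genes. Of these, 221 reached 10 CPM, 131 reached 50 CPM and 48 reached 100 CPM. As a background, 4299 genes that are no members and had no RNA had a 95th percentile of 10.2 CPM, and 218 members lay above it. The width of the counted window is not given in the sources used here, so a level is per gene row and not per length. The members nearest the 5 CPM line were Mir1247, Mir6942 and Mir6991 just above it and Mir135b, Mir3080 and Mir142 just below it. Mir1247 had 5.16 and 5.61 CPM at 48 h, against 5.18 and 4.82 CPM at 0 h.

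A host gene, meaning another annotated gene in the table whose span overlaps the microRNA, was found for 873 members. Counts were called shared where the microRNA row and the host row lay within 20% of each other in every H3K4me3 library. This held for 149 members, 112 of them at 5 CPM or more. Another 81 members of 5 CPM or more had a host with other counts, and 76 had no host in the table. Median levels were 68.0 CPM where counts were shared, 17.5 CPM where the host had other counts and 47.5 CPM with no host. Of the 76 without a host, 27 still shared counts with a gene within 5000 bp. Mir320, for example, had the same counts as Polr3d, an RNA polymerase III subunit gene, in every library.

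The 30 members at 100 CPM or more that shared counts with a host were Mir125a, Mir1894, Mir1901, Mir1907, Mir1938, Mir1982, Mir207, Mir22, Mir3069, Mir3077, Mir322, Mir503, Mir5121, Mir5131, Mir677, Mir6935, Mir6975, Mir6976, Mir7036b, Mir7045, Mir7067, Mir707, Mir7238, Mir7653, Mir7655, Mir7663, Mir7668, Mir7672, Mir8112 and Mir8114. The 7 that had a host with other counts were Mir1893, Mir191, Mir3082, Mir425, Mir5133, Mir99b and Mirlet7e. The 11 with no host in the table were Mir101c, Mir1932, Mir1945, Mir22hg, Mir2861, Mir320, Mir3569, Mir3960, Mir760, Mir8105 and Mirlet7i.

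The level was lower at a longer distance between the microRNA and the start of its host. A start was on record in RefSeq for the hosts of 720 members. Of the 75 members under 1000 bp from it, 61 reached 5 CPM and the median was 53.0 CPM. Of the 68 members at 1000 to 2999 bp, 49 did so and the median was 38.7 CPM. At 3000 to 4999 bp, 15 of 46 did so, and the median was 2.43 CPM. At 10000 bp or more, 21 of 445 did so, and the median was 1.39 CPM. Members of 5 CPM or more that shared counts with the host numbered 52 and 36 in the 2 nearest bins and 1, 2 and 2 in the others. These are descriptions of the table, and genes are not independent replicates.

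**Figure D1:**
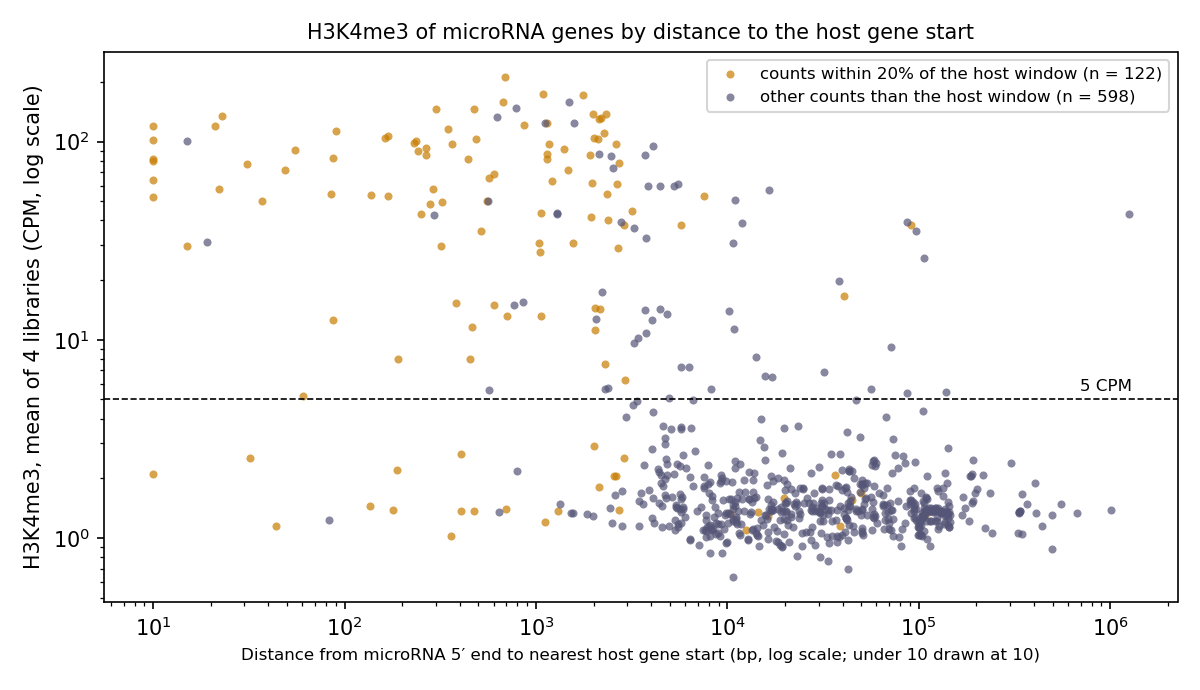
Mean H3K4me3 level (CPM, log scale, 4 libraries) of 720 microRNA genes against the distance in bp (log scale) from the microRNA to the nearest start of its host gene. Points above the dashed 5 CPM line crowd under 3000 bp, where most rows with counts within 20% of the host window lie, and most rows beyond 10000 bp lie under the line.

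Most of the 10 strongest rows lay near the starts of their hosts and did not pass the test. Mir1894, 693 bp from the start of Ppp1r10, a regulator of protein phosphatase 1, had 208 and 216 CPM at 48 h, against 211 and 218 CPM at 0 h. Mir6935, in the cytoskeletal actin gene Actg1, had 187 and 167 CPM at 48 h, against 168 and 176 CPM at 0 h. Mir5121, Mir707, Mir3082, Mir7672 and Mir1938 were likewise not called, with log2 differences (48 h over 0 h) between -0.07 and 0.02. In Mir1938 the groups did not overlap, with 140 and 143 CPM at 48 h, against 148 and 151 CPM at 0 h.

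The highest row, Mir101c on chromosome 9, had a call that depended on a single library and on the method. It had 986 and 3793 CPM at 48 h, against 1534 and 1267 CPM at 0 h, so the groups overlapped. Its log2 difference was 0.77 (adjusted p = 0.0159, edgeR quasi-likelihood test) with all libraries. It was -0.51 without 48 h replicate 2, which reversed the direction. The call was lost with DESeq2 (adjusted p = 0.717), and in edgeR with library size only (adjusted p = 0.0710) or a replicate block (adjusted p = 0.144). The row stood far above the next highest, at 1895 against 256 CPM, with no host in the table and no RNA count. Whether this level exceeds that of input DNA was not tested.

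Windows were compared between 48 h and 0 h with edgeR's quasi-likelihood test on all 24476 gene rows that passed the filter on low counts, with Benjamini-Hochberg adjustment over all of them and a call at an adjusted p under 0.05. All 1182 members passed that filter. After eCG, 34 microRNA genes rose and 16 fell, against 6.35% of all genes called higher and 2.08% called lower (8.42% in either direction). Among the 269 members of 5 CPM or more, 34 rose and 11 fell, against 10.5% higher and 3.07% lower among all genes at that level (13.6% in either direction). The share of members called was thus below that of all genes over the whole table and near it among rows of 5 CPM or more. The 269 members had a median log2 difference of 0.07, against 0.05 for all genes of 5 CPM or more. Only Mir7059 changed by over 1 on the log2 scale among them, and 255 lay within 0.5 of no change. Members that share reads are not separate observations. Counting neighbours with like counts, or rows with the same counts, as 1 window left 983 windows, of which 30 rose and 15 fell.

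The number of calls depended on 0 h replicate 1. Without that library 2 of the 34 rises and 4 of the 16 falls were called. Those same 6 members were called under all 10 alternatives tried: Mir210 and Mir1904 rose, and Mir7059, Mir5123, Mir125b-1 and Mir1901 fell. Groups did not overlap at 146 of the 269 members of 5 CPM or more, against 57.7% of all genes at that level.

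Mir7059 showed the largest fall among members of 5 CPM or more. It had 7.62 and 7.80 CPM at 48 h, against 20.4 and 20.4 CPM at 0 h. The groups lay far apart, with a log2 difference of -1.40 ± 0.14 (SE, adjusted p = 1.56e-10, edgeR). Mir7059 (chr7:126579474-126579532, minus strand, build GRCm38.p6) lies within Cln3, which encodes a lysosomal membrane protein, 3704 bp from its start. The Cln3 row itself held other counts and was not called (log2 difference -0.13, adjusted p = 0.365, edgeR). Cln3 RNA was 46.7, 37.5 and 35.6 CPM at 48 h, against 81.9, 67.8 and 77.3 CPM at 0 h, and fell by 0.92 on the log2 scale (adjusted p = 0.00114, edgeR).

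Mir5123 showed the next largest fall. It had 41.3 and 45.6 CPM at 48 h, against 74.8 and 75.6 CPM at 0 h, a log2 difference of -0.79 ± 0.07 (SE, adjusted p = 7.05e-11, edgeR). It lies at chr4:40850056-40850138 on the minus strand, 3846 bp from the start of B4galt1, a galactosyltransferase gene of the Golgi. Neither the B4galt1 row (log2 difference -0.20, adjusted p = 0.0586, edgeR) nor B4galt1 RNA (-0.12, adjusted p = 0.364, edgeR) was called. At both loci the level fell at the row inside the gene, while the row of the gene itself did not pass the test.

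Mir1901 was the strongest row with a called fall, with 229 and 222 CPM at 48 h and 281 and 293 CPM at 0 h (log2 difference -0.35 ± 0.07 SE, adjusted p = 3.04e-04, edgeR). It shared counts with its host Cables1, a cyclin-dependent kinase partner, whose row fell by 0.24 (adjusted p = 0.0180, edgeR). Cables1 RNA was 170, 209 and 191 CPM at 48 h, against 555, 387 and 364 CPM at 0 h, and fell by 1.20 on the log2 scale (adjusted p = 0.00141, edgeR). Mir1949 in Snhg4, a host of small nucleolar RNAs, had 30.8 and 32.2 CPM at 48 h and 38.7 and 39.3 CPM at 0 h. It fell by 0.31 on the log2 scale (adjusted p = 0.0127, edgeR). Snhg4 RNA fell by 0.62 on the log2 scale (adjusted p = 0.0480, edgeR), a call kept under 2 of 11 alternatives.

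Further falls came from Mir1905 and Mir3058, which lie inside genes whose own rows were not called, and from Mir99ahg, which has no host in the table. Mir1905 in Mex3a, an RNA-binding protein gene, had 12.7 and 10.3 CPM at 48 h, against 17.4 and 16.5 CPM at 0 h (log2 difference -0.57, adjusted p = 0.00362, edgeR). Mex3a RNA fell by 0.69 on the log2 scale. Mir3058 in Nudt4, a polyphosphate hydrolase gene, had 10.9 and 11.2 CPM at 48 h, against 16.2 and 15.8 CPM at 0 h (log2 difference -0.54, adjusted p = 0.00569, edgeR). Nudt4 RNA was not called. The long noncoding transcript Mir99ahg had 67.7 and 74.0 CPM at 48 h, against 88.1 and 88.4 CPM at 0 h (log2 difference -0.32, adjusted p = 0.00234, edgeR). In all, 5 members under 5 CPM were also called lower and none higher: Mir6954, Mir128-1, Mir6370, Mir3473a and Mir6979, chosen after their values were seen. These 5 of 913 members under 5 CPM stand beside 0.583% called lower and 0.0818% called higher among all genes under 5 CPM, so the share called lower is near the background. They were at 1.10 to 1.75 CPM, a level at which the median log2 difference was -0.19 for members and -0.20 for all genes under 5 CPM.

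Among the rises, Mir210 and Mir1904 were called under every alternative. Mir210, which is known as a microRNA induced by low oxygen, had 34.7 and 36.2 CPM at 48 h, against 23.1 and 20.7 CPM at 0 h. Its log2 difference was 0.69 ± 0.09 (SE, adjusted p = 4.85e-07, edgeR). It lies at chr7:141221384-141221493 on the minus strand, with no host in the table. Mir1904 had 51.3 and 51.2 CPM at 48 h, against 34.0 and 35.4 CPM at 0 h (log2 difference 0.57 ± 0.08 SE, adjusted p = 9.14e-07, edgeR). It lies at chr13:109903809-109903888 within Pde4d, a phosphodiesterase gene that degrades cyclic AMP. The Pde4d row had 1.02 and 1.40 CPM at 48 h and 1.28 and 1.25 CPM at 0 h, so the Mir1904 row stood far above its host's. Pde4d RNA was not called (log2 difference 0.50, adjusted p = 0.258, edgeR).

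Mir190b had the largest rise, from few counts. Its level was 12.2 and 13.8 CPM at 48 h, against 7.23 and 6.65 CPM at 0 h (log2 difference 0.90 ± 0.16 SE, adjusted p = 9.80e-05, edgeR). It has no host in the table and was not called without 0 h replicate 1 (adjusted p = 0.0690). Mir6387 had 7.02 and 9.99 CPM at 48 h, against 5.50 and 3.74 CPM at 0 h (log2 difference 0.86, adjusted p = 0.00479, edgeR). It lies within Trib2, a pseudokinase gene, whose own row had 275 and 285 CPM at 48 h, against 228 and 251 CPM at 0 h, and rose by 0.23 (adjusted p = 0.0270, edgeR). Trib2 RNA rose by 0.81 on the log2 scale (adjusted p = 0.00115, edgeR).

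Mir1906-1 on chromosome 12 and Mir1906-2 on chromosome X had the same count in every library, so the table cannot tell these copies apart. Their level was 18.7 and 19.3 CPM at 48 h, against 12.7 and 11.7 CPM at 0 h (log2 difference 0.63, adjusted p = 4.00e-04, edgeR). Mir1906-1 lies in Meg3, an imprinted noncoding gene whose own row rose by 0.49 (adjusted p = 3.06e-05, edgeR). Meg3 RNA was 239, 157 and 216 CPM at 48 h, against 289, 327 and 383 CPM at 0 h, and fell by 0.71 on the log2 scale (adjusted p = 0.0128, edgeR). The mark on the Meg3 row and its RNA thus moved in opposite directions. The fall of Meg3 RNA was not called under 1 of 11 alternatives (adjusted p = 0.0586).

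Of the other named rises, Mir1966, Mir7646, Mir7000, Mir466f-2 and Mir5126 had log2 differences of 0.52, 0.48, 0.47, 0.44 and 0.43. Mir7000 and Mir466f-2 were called under 9 of 10 alternatives, Mir1966 under 5, and Mir7646 and Mir5126 under 4. Mir466f-2 belongs to the rodent microRNA cluster within Sfmbt2, a Polycomb-related gene. It had 43.1 and 38.3 CPM at 48 h, against 31.5 and 28.3 CPM at 0 h, while the Sfmbt2 row was not called. Mir5126 shared counts with Dner, a Notch ligand gene, and had 18.2 and 16.9 CPM at 48 h, against 13.9 and 12.1 CPM at 0 h.

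**Figure D2:**
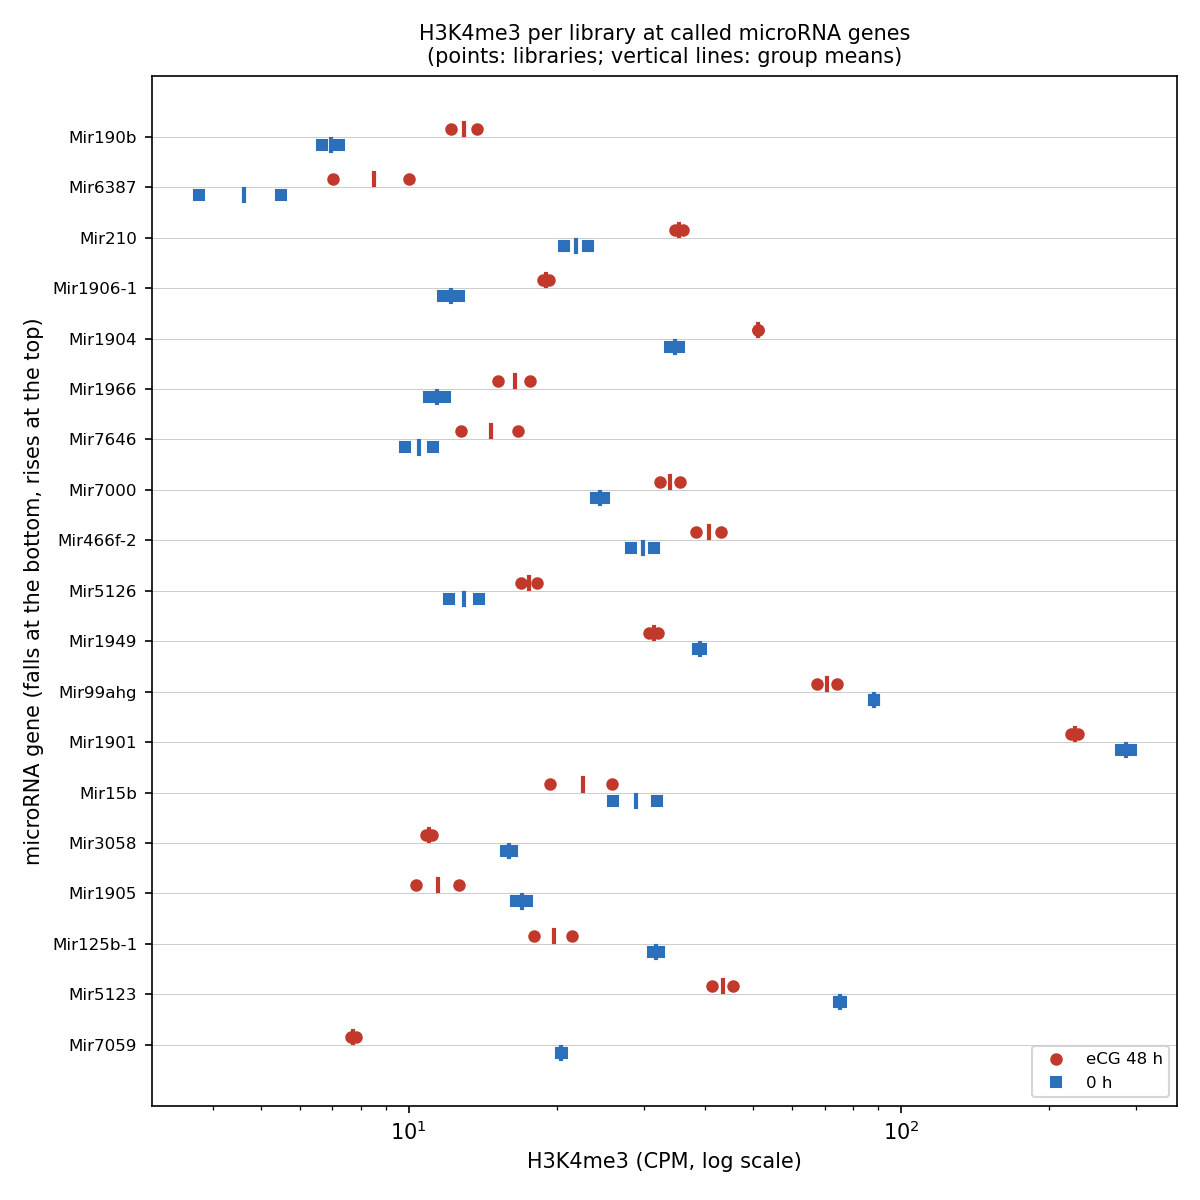
H3K4me3 (CPM, log scale) in each library at the named called microRNA genes, with eCG 48 h as circles above 0 h squares in each row and vertical lines at group means. The 48 h and 0 h points stand clear of each other at Mir7059 and Mir5123 among the falls and at Mir190b, Mir210 and Mir1904 among the rises, and come close at Mir15b, with 19.4 and 25.9 CPM at 48 h and 31.9 and 26.0 CPM at 0 h.

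Mir22 and its host transcript Mir22hg form a locus with its own start. miR-22 is an abundant microRNA in many tissues. Mir22 had 149 and 141 CPM at 48 h, against 116 and 120 CPM at 0 h (log2 difference 0.29 ± 0.07 SE, adjusted p = 0.00339, edgeR). The groups did not overlap, and the call was lost under 2 of 10 alternatives, with an adjusted p of 0.247 without 0 h replicate 1. The Mir22hg row shared its counts, with 153 and 146 CPM at 48 h and 121 and 125 CPM at 0 h. Mir22hg RNA was 27.2, 24.4 and 27.1 CPM at 48 h, against 18.8, 21.4 and 28.6 CPM at 0 h, and was not called (log2 difference 0.19, adjusted p = 0.375, edgeR).

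The starts of Mir22hg, which rose, and of Mir99ahg, which fell, are shown because H3K4me3 was called at both rows and each has a start in RefSeq (GRCm38.p6, 250 bases before to 50 after the start). The annotated span of Mir99ahg does not overlap Mir99a, Mirlet7c-1 or Mir125b-2. Follicle-stimulating hormone acts through cyclic AMP, so TGACG, the core of the cyclic AMP response element, and its reverse complement CGTCA were searched on both strands, and a match is in capitals. The Mir22hg window held 1 match, TGACG, beginning 176 bases before the start, and 12 CG dinucleotides. The Mir99ahg window held none, and 8 CG dinucleotides. Of 32851 promoter windows of the same length, 20.8% held a match, and the median was 7 CG dinucleotides. A match describes the letters only.
Mir22hg, chr11:75461289-75461588, plus strand: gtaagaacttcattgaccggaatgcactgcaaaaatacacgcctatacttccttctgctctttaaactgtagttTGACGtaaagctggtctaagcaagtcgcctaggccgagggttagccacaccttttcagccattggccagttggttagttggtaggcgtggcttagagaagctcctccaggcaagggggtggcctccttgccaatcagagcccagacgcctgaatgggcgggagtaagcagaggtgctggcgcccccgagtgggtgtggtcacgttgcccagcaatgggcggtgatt
Mir99ahg, chr16:77329078-77329377, plus strand: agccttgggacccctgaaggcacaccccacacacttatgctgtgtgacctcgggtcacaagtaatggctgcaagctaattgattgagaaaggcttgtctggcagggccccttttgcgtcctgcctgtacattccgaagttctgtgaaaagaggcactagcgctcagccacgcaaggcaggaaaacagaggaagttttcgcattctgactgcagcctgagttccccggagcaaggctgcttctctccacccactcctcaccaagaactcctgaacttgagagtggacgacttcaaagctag

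The 3 clusters of a miR-99/100, a let-7 and a miR-125 gene stood at different levels and held calls in both directions. The chromosome 17 cluster lies near a start of Spaca6, a gene for sperm and egg fusion, and was the strongest. Mir99b had 164 and 154 CPM at 48 h, against 134 and 140 CPM at 0 h, and rose by 0.22 on the log2 scale (adjusted p = 0.0393, edgeR). Mir125a had 114 and 111 CPM at 48 h, against 93.7 and 97.0 CPM at 0 h, and rose by 0.24 (adjusted p = 0.0238, edgeR). It shared counts with Spaca6, whose own row rose by 0.25 (adjusted p = 0.0171, edgeR). Mirlet7e had 145 and 140 CPM at 48 h, against 122 and 127 CPM at 0 h, without overlap, and was not called (log2 difference 0.20, adjusted p = 0.0608, edgeR). Mir99b and Mirlet7e belong to the same window by like counts, so they are not separate observations. Mir99b, Mirlet7e and Mir125a lie 787, 623 and 163 bp from the same start of Spaca6. The rises of Mir99b and Mir125a were called under 3 and 5 of 10 alternatives. Spaca6 RNA was not called (log2 difference -0.38, adjusted p = 0.0834, edgeR).

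In the chromosome 9 cluster, Mir125b-1 had 17.9 and 21.4 CPM at 48 h, against 32.3 and 31.3 CPM at 0 h. It fell by 0.69 on the log2 scale (SE 0.10, adjusted p = 1.96e-06, edgeR) and lies at chr9:41581926-41582002 on the plus strand. Mir100 had 5.04 and 4.49 CPM at 48 h, against 7.74 and 5.40 CPM at 0 h, and was not called. Mirlet7a-2 had 1.38 and 1.35 CPM at 48 h, against 2.05 and 1.99 CPM at 0 h, and was not called. All 3 lie in Mir100hg, whose own row was not called. Mir100hg RNA was low, with 1.99, 1.08 and 1.74 CPM at 48 h, against 2.83, 6.12 and 5.85 CPM at 0 h, and fell by 1.66 on the log2 scale (adjusted p = 0.0102, edgeR).

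In the chromosome 16 cluster, Mir99a had 6.72 and 9.82 CPM at 48 h, against 14.0 and 9.64 CPM at 0 h. Its call as lower (log2 difference -0.53, adjusted p = 0.0471, edgeR) stood beside overlapping groups and was kept under 5 of 10 alternatives. Mirlet7c-1, with 4.32 and 5.89 CPM at 48 h and 7.93 and 4.90 CPM at 0 h, was not called. Mir125b-2 had 29.2 and 33.9 CPM at 48 h, against 33.9 and 27.7 CPM at 0 h, and was not called (log2 difference 0.03, adjusted p = 0.918). Mir125b-1 and Mir125b-2 encode the same mature miR-125b-5p, so one of its source loci fell while the other did not pass the test.

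The log2 ratio of Mir125a to Mir125b-1 was 2.66 and 2.37 at 48 h, against 1.54 and 1.63 at 0 h, a difference of 0.93. The log2 ratio of Mir99b to Mir99a was 4.61 and 3.97 at 48 h, against 3.26 and 3.86 at 0 h. The log2 ratio of Mir99b to Mir100 was 5.03 and 5.10 at 48 h, against 4.11 and 4.70 at 0 h. These 3 ratios were higher in each 48 h library than in either 0 h library. The other 2 ratios computed in these clusters overlapped between groups. Mirlet7e to Mirlet7c-1 was 5.07 and 4.57 at 48 h, against 3.94 and 4.69 at 0 h, on the log2 scale. Mir125a to Mir125b-2 was 1.96 and 1.71 at 48 h, against 1.47 and 1.81 at 0 h, on the same scale. These pairs were chosen with their values known, so the ratios are descriptions.

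**Figure D3:**
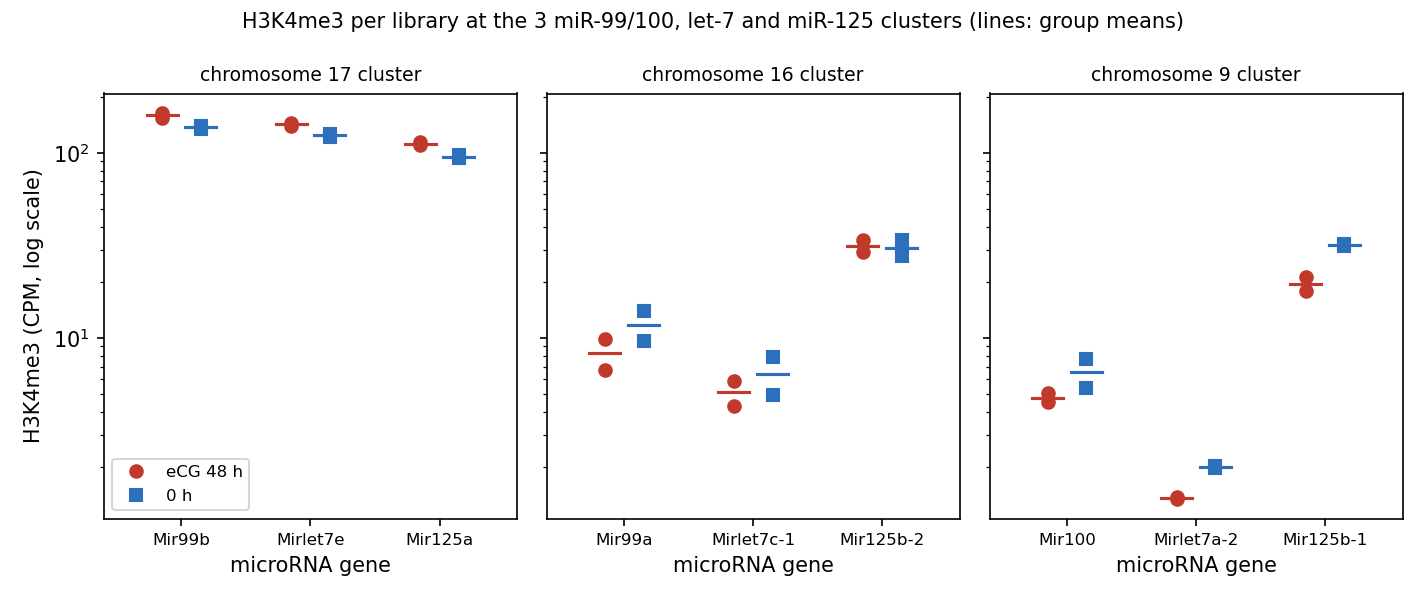
H3K4me3 (CPM, log scale) per library at the 9 genes of the 3 clusters, with eCG 48 h circles left of 0 h squares and lines at group means. The chromosome 17 genes lie highest and the 48 h points stand above the 0 h points, while Mir125b-1 on chromosome 9 lies lower at 48 h and Mir125b-2 overlaps.

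By seed, the let-7 seed was carried by 13 members with a sequence on record, 3 of them at 5 CPM or more and none called. Mirlet7i, a let-7 gene with no host in the table, had 140 and 128 CPM at 48 h, against 128 and 130 CPM at 0 h. Of the let-7 family list, 12 genes were in the table and 0 were called by edgeR. The miR-125 seed was carried by 6 members, 4 of them at 5 CPM or more. Of these, 1 was higher (Mir125a) and 1 lower (Mir125b-1), against 10.5% higher and 3.07% lower among all genes of 5 CPM or more. Mir351, which carries that seed on chromosome X, had 67.9 and 73.5 CPM at 48 h, against 72.5 and 69.1 CPM at 0 h.

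The miR-15/16 seed was carried by 11 members, 5 of them at 5 CPM or more. Of these, 2 were lower, against 3.07% lower among all genes of 5 CPM or more. The 2, Mir15b and Mir16-2, have like counts and belong to the same window, so they are not separate observations. MicroRNAs with this seed are known to restrain the cell cycle. Mir15b had 19.4 and 25.9 CPM at 48 h, against 31.9 and 26.0 CPM at 0 h, and fell by 0.36 on the log2 scale (adjusted p = 0.0264, edgeR). Its neighbour Mir16-2 had 16.6 and 22.6 CPM at 48 h, against 27.3 and 23.3 CPM at 0 h, and the groups of both came close. Both calls were kept under 7 of 10 alternatives. Both lie in Smc4, a condensin subunit gene, whose row and RNA were not called. Mir195a had 81.3 and 79.1 CPM at 48 h, against 79.9 and 78.5 CPM at 0 h, and Mir497 had 77.2 and 75.4 CPM at 48 h, against 75.3 and 73.5 CPM at 0 h. Neither was called. Mir322, with 109 and 105 CPM at 48 h and 101 and 102 CPM at 0 h, was not called, nor were its neighbours Mir503 and Mir351. Their host C430049B03Rik had RNA that fell by 0.41 on the log2 scale (adjusted p = 0.0112, edgeR).

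The miR-17-92 cluster promotes proliferation. Its 6 genes on chromosome 14 ran in order of level from Mir17, with 86.4 and 64.8 CPM at 48 h and 63.4 and 69.5 CPM at 0 h, to Mir92-1, with 58.4 and 44.4 CPM at 48 h and 46.3 and 51.5 CPM at 0 h. In all of them 48 h replicate 1 was the highest library and the groups overlapped. These 6 rows and that of Mir17hg are linked by like counts into the same window, so they are not separate observations. Mir17hg, the host transcript, overlaps only Mir19b-1 and Mir92-1 of these genes by its annotated span. Mir17hg RNA was 10.9, 6.997 and 7.31 CPM at 48 h, against 24.0, 23.4 and 26.5 CPM at 0 h. It fell by 1.56 on the log2 scale (SE 0.17, adjusted p = 5.81e-04, edgeR), and every 48 h library lay under every 0 h library. The Mir17hg H3K4me3 row was not called (log2 difference 0.09, adjusted p = 0.629, edgeR). The 6 genes of the paralogous cluster on chromosome X were at 6.96 to 13.0 CPM at 48 h and 6.98 to 12.2 CPM at 0 h. Their rows are also linked by like counts into a single window. None of the 15 genes of these clusters was called by edgeR.

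A list of 46 microRNA genes with known roles or high levels in granulosa cells held 21 at 5 CPM or more. Of the 46, 3 rose (Mir22, Mir99b and Mir125a) and 2 fell (Mir125b-1 and Mir99a), against 6.35% higher and 2.08% lower among all genes. Of the rises, Mir99b and Mir125a lie in the same cluster near the same start of Spaca6. Mir21a, an anti-apoptotic microRNA of the periovulatory follicle, had 37.1 and 41.8 CPM at 48 h, against 40.7 and 37.1 CPM at 0 h. It lies in Vmp1, an autophagy gene whose RNA rose by 0.87 on the log2 scale (adjusted p = 0.00210, edgeR), and neither the Mir21a nor the Vmp1 row was called. Mir132 had 35.9 and 33.1 CPM at 48 h, against 31.1 and 31.0 CPM at 0 h, and Mir212 had 39.5 and 37.2 CPM at 48 h, against 33.8 and 33.7 CPM at 0 h. The groups did not overlap at these 2 cyclic AMP-responsive microRNAs, and neither was called (adjusted p = 0.337 and 0.188, edgeR). Groups were likewise apart at 57.7% of all genes of 5 CPM or more. Mir132 and Mir212 belong to the same window by like counts, so they are not separate observations. Both share counts with Hic1, a gene within 5000 bp. Mir202, known from the gonads, had 58.4 and 61.4 CPM at 48 h, against 61.8 and 62.5 CPM at 0 h. Others not called were Mir320, Mir150, Mir423, Mir10a, Mir335, Mir143 and Mir145a.

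Where a member of 5 CPM or more shared counts with its host, its log2 difference lay within 0.1 of the host's for 109 of 112 members. That is no separate finding, since these rows were chosen for like counts. Where counts were not shared, 25 of 81 lay that close, and the median absolute gap was 0.24. Of the 15 called members with shared counts, 14 had a host row with the same call, which also follows largely from the choice for like counts. Of 17 called members with other counts, 4 did. Host RNA was tested for 616 of 708 hosts, of which 100 rose and 122 fell, against 16% and 15.8% of all genes tested (31.8% in either direction). Of the 7 called falls in a host with other counts, host RNA was lower for 3 and higher for 0. Of the 2 called falls with shared counts, host RNA was lower for 2, of which the call for Snhg4 was kept under 2 of 11 alternatives. Of the 13 called rises with shared counts, host RNA was higher for 2 and lower for 2. Of the 10 called rises with other counts, it was higher for 1 and lower for 2. In bulk samples, fewer cells of a type and less RNA per cell cannot be told apart.

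**Figure D4:**
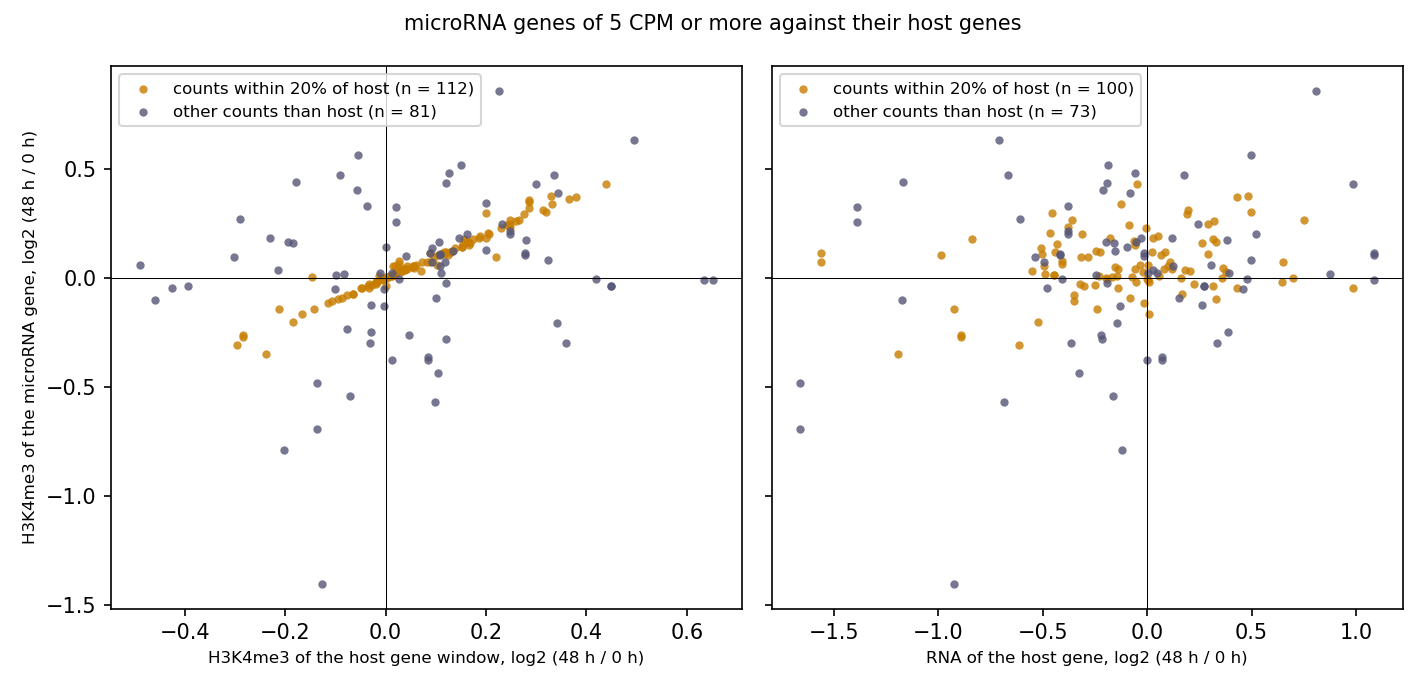
Log2 difference in H3K4me3 (48 h over 0 h) of microRNA genes of 5 CPM or more against that of the host gene row (left) and against the log2 difference of host RNA (right). The 112 rows with counts within 20% of the host lie along a line at left, 109 of them within 0.1 of the host, and the 81 other rows scatter.

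The RNA table held few counts at microRNA genes, and libraries of this kind are not made for mature microRNAs. Of the 1182 members, 352 had any RNA count and 27 passed the filter, of which 6 fell and none rose (edgeR), against 15.8% lower and 16% higher among all genes tested in RNA. Those that fell were Mir17hg, Mir100hg, Mir5125, Mir3064, Mir1839 and Mir8094, and the 6 were named after their values were seen. Mir5125 averaged 16.4 CPM at 48 h and 36.1 CPM at 0 h. Levels of mature microRNAs were not measured.

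Of 29 genes that make or carry microRNAs, 27 had RNA that could be tested, of which 1 rose and 6 fell, against 16% higher and 15.8% lower among all genes tested. Ago4, an Argonaute gene, had 7.58, 7.28 and 7.83 CPM of RNA at 48 h, against 13.9, 13.6 and 15.5 CPM at 0 h. It fell by 0.92 on the log2 scale (adjusted p = 0.00136, edgeR) and was called under all 11 alternatives. Ddx17, an RNA helicase of the Drosha complex, fell by 0.39, Ago1 by 0.37, the silencing scaffolds Tnrc6a by 0.36 and Tnrc6c by 0.31, and the helicase Mov10 by 0.35. Ncbp1, a gene of the nuclear cap-binding complex, rose by 0.28 (adjusted p = 0.0273, edgeR) and was called under 5 of 11 alternatives. Drosha, Dgcr8, Xpo5 and Dicer1 were not called, with log2 differences of -0.05, -0.19, -0.17 and -0.16. In H3K4me3, 3 of the 29 rose, Tnrc6c by 0.32, Ago2 by 0.25 and Ago1 by 0.23, and 0 fell, against 10.5% higher among all genes of 5 CPM or more, so this count is near the background. Ago1 and Tnrc6c thus had more H3K4me3 and less RNA at 48 h. Without H3K4me3 48 h replicate 1, or without H3K4me3 0 h replicate 1, edgeR called 0 of the 29 higher in H3K4me3. Without RNA 0 h replicate 2, 1 biogenesis gene was called lower in RNA.

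The granulosa marker list was detected in RNA for 12 of 12 genes at 5 CPM or more. In RNA, 8 of the 12 rose and 3 fell, against 16% higher and 15.8% lower among all genes tested. Their sum was 51761 to 53719 CPM at 48 h, against 22321 to 27928 CPM at 0 h. In H3K4me3, 5 of the 12 rose and 3 fell, against 6.35% higher and 2.08% lower among all genes. Endothelial markers moved with the treatment in RNA: 6 of 6 rose, and their sum was 155 to 468 CPM at 48 h, against 76.9 to 81.6 CPM at 0 h. In H3K4me3 none of the 6 was called, and their sum was 45.2 to 45.5 CPM at 48 h, against 38.7 to 45.2 CPM at 0 h. Mir126a, the endothelial microRNA within Egfl7, had 1.74 and 1.91 CPM at 48 h, against 1.41 and 1.50 CPM at 0 h, and was not called. Sums of red blood cell markers were 162 to 677 CPM of RNA at 48 h, against 67.7 to 128 CPM at 0 h, and 4.77 to 6.78 CPM of H3K4me3 at 48 h, against 6.07 to 7.42 CPM at 0 h. Oocyte markers were lower in RNA for 3 of 6 genes, and their sum was 21.2 to 54.3 CPM at 48 h, against 59.0 to 66.0 CPM at 0 h. In H3K4me3 none of the 6 oocyte markers was called, and their sum was 79.9 to 81.8 CPM at 48 h, against 76.2 to 80.1 CPM at 0 h. Of 6 theca and stroma markers, 1 was higher and 1 lower in RNA, and none of 5 immune markers was called in either assay. The part of these cell types in the RNA results was not tested.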

How the data were processed

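Whole-number counts for each Entrez ID were deposited by the authors in a table of 4 H3K4me3 libraries and another of 6 RNA libraries. H3K4me3 columns were put in their groups by name and numbered as their names end. Per the submitters' processing notes, the genome was mm10, with Trimmomatic, Bowtie2 2.2.9, MACS2 2.2 and ChIPseeker 1.18.0 named for H3K4me3, and FastQC 0.11.5, Picard, STAR, kallisto and sleuth for RNA. The window counted per gene is not given in the sources used here, nor is whether counting used strand. Symbols and gene spans (without exons, so exonic or intronic position is not given) came from RefSeq GRCm38.p6: 24472 of 24541 IDs matched, and 1022 of 1182 members had a microRNA sequence. Distance ran from the microRNA 5′ end, or from its lower coordinate where no strand was on record.

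Counts were tested with edgeR 4.0.16 (R 4.3.3; TMM, filterByExpr, quasi-likelihood, Benjamini-Hochberg, 48 h over 0 h). DESeq2 1.42.0 and the other alternatives are reported in the closing section. On simulated counts the scripts recovered most of the changed genes they were given. Those changes were larger than the H3K4me3 differences of most members of 5 CPM or more. The recovery therefore does not bear on calls of that size. Named were the 10 highest windows, up to 10 rises and 10 falls called without overlap, the windows nearest 5 CPM, listed microRNAs and hosts. Members and lists were chosen with earlier results of these data known.

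No pair of replicates agreed within sampling noise (chi-square per degree of freedom 1.69 or more). Same-numbered deviations correlated at -0.35 in H3K4me3 and between -0.24 and -0.14 in RNA, so the numbers were not treated as pairs. Crossed numbers correlated at 0.35 in H3K4me3, the mirror value that 2 libraries a group force. Whether libraries with crossed numbers share a batch was not tested.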

Additional observations from a re-analysis of the deposited data

How the results depend on the processing

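The calls rest on 2 libraries a group. The main count of rises, 34, became 20 with library size only, 15 with DESeq2, 22 with a replicate block and 67 with a crossed replicate block, which was chosen after seeing the data, and 2 to 48 when each library was left out. The main count of falls, 16, became 7 with DESeq2 and 4 to 16 with a library left out. The lowest values, 2 and 4, came without 0 h replicate 1. For distinct windows, 30 rises became 16 with library size only, 11 with DESeq2, 18 with the replicate block, 58 with the crossed block and 2 to 38 with a library left out, and 15 falls became 7 with DESeq2 and 4 to 15. Rises of microRNA biogenesis genes in H3K4me3, 3, became 1 with library size only, 1 with DESeq2, 1 with the replicate block, 11 with the crossed block and 0 to 7 with a library left out. In RNA, host genes called lower, 122, became 222 with library size only and 76 to 141 with a library left out, lowest without 0 h replicate 3 or 48 h replicate 3. Biogenesis genes in RNA changed from 1 higher and 6 lower to 0 and 18 with library size only, 2 higher with DESeq2 and 0 higher with the replicate block, and to 0 to 6 higher and 1 to 6 lower with a library left out. Library size only moves the median log2 difference of RNA to -0.20, against -0.03. At a mean of 2 CPM instead of 5, 432 members passed. Counts identical to the host's, instead of within 20%, held for 11 members. Of single named results under the alternatives, 1001 values kept their side of the threshold, 71 lost the call, 25 gained one and 1 reversed: Mir101c, at 0.77, ran between -0.51 and 1.43 with a library left out, reversed without 48 h replicate 2. Samples of the same replicate number were not treated as pairs, on the correlations given. Except where a library or test was removed by construction, the cause was not tested.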
